A study of Mus musculus with 4 samples.

Results

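Serpins are a superfamily of proteins named for serine protease inhibition, and the genes analysed here are the 62 autosomal protein-coding mouse genes whose symbols start with Serpin, out of 20665 autosomal protein-coding genes in the RefSeq annotation of GRCm38.p6. They were grouped by position. The Serpina genes on chromosome 12 number 23, the Serpinb genes on chromosome 1 number 12 and the Serpinb genes on chromosome 13 number 16, and these 3 groups are clusters of tandem copies. The remaining 11 genes, called single-copy here, lie outside these clusters. Among them Serpinf1 and Serpinf2 are neighbours on chromosome 11 whose windows share bases, and Serpini1 and Serpini2 lie near each other on chromosome 3. For each gene the window of the gene plus 5 kb on both sides was taken, and the percent of its bases lying in H3K9me3 peaks was measured in each of 2 deposited peak lists.

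The lists came from mouse muscle stem cells that were sorted magnetically from a conditional Setdb1 model and grown in culture. The control culture was given ethanol and the other culture 4-hydroxytamoxifen, to delete Setdb1, for 72 h. Chromatin was digested with micrococcal nuclease and immunoprecipitated with an antibody to H3K9me3. The genotype field reads Setdb1lox/lox;Pax7GakaCreERT2 for the control H3K9me3 sample and Setdb1lox/lox;Pax7GakaCreERT3 for the treated one, so both carry loxP-flanked Setdb1 alleles and a Cre driven from Pax7, a muscle stem cell gene. No label gives the age or sex of the mice, or the share of cells in which Setdb1 was cut. In a bulk culture, loss of the mark in some cells and a weaker mark in every cell cannot be told apart. Each condition had a single library (n = 1), so values carry no replicate error, no test between conditions was possible, and read depth is unknown. The lists are called the ethanol list, which is the control, and the tamoxifen list.

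An inhibitory serpin offers an exposed loop as bait, is cut by the target protease and traps it in a covalent complex. Members of clade A are mostly secreted by the liver, members of clade B act mostly inside cells, and several genes of both clades have been copied many times in rodents. H3K9me3 is a mark of silent chromatin, and SETDB1 is one of the enzymes that deposit it, often over repeats and gene clusters.

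The serpin genes with the highest window coverage were Serpinb3b and Serpinb3d, in the middle of the chromosome 1 cluster. Serpinb3 genes are the mouse relatives of the squamous cell carcinoma antigens, inhibitors of serine and cysteine proteases. The promoters of all 4 are shown first because the copies share a family but not a level of coverage, together with the only other serpin promoters that met a peak. Each sequence runs 5′ to 3′ from 250 bases before to 50 bases after an annotated start, from RefSeq (GRCm38.p6). Bases inside a peak of either list are in capitals.
Serpinb3a, chr1:107052254-107052553, minus strand: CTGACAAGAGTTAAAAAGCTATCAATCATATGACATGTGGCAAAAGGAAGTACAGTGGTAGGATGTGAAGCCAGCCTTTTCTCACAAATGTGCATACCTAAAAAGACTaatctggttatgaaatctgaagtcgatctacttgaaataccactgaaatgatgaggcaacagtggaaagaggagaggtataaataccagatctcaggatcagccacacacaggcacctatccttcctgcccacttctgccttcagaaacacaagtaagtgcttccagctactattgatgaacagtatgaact
Serpinb3b, chr1:107161065-107161364, minus strand: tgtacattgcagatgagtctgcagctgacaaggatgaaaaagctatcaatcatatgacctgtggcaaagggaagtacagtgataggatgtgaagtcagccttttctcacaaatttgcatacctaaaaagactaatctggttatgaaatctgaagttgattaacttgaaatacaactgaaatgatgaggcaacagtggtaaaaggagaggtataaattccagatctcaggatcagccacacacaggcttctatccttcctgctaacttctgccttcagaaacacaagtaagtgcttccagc
Serpinb3c, chr1:107278322-107278621, minus strand: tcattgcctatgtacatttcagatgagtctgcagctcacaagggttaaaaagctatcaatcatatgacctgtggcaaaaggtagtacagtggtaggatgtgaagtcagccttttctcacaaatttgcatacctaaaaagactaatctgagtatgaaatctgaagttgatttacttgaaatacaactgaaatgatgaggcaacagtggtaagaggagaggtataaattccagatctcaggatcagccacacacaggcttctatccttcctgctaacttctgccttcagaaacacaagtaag
Serpinb3d, chr1:107083431-107083730, minus strand: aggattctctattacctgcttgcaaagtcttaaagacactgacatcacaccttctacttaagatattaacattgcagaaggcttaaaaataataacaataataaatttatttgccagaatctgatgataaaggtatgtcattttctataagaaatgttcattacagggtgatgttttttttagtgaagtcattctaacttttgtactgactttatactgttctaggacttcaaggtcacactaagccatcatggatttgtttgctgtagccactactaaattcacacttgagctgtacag
Serpinb12, later of its annotated starts, chr1:106938707-106939006, plus strand: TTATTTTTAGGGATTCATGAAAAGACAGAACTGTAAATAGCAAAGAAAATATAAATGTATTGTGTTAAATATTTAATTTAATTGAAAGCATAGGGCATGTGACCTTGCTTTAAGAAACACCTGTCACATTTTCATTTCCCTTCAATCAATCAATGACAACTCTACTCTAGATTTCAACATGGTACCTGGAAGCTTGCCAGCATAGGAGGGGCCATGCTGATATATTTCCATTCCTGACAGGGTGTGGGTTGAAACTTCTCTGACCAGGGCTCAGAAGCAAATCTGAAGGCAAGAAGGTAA
Serpini2, chr3:75270029-75270328, minus strand: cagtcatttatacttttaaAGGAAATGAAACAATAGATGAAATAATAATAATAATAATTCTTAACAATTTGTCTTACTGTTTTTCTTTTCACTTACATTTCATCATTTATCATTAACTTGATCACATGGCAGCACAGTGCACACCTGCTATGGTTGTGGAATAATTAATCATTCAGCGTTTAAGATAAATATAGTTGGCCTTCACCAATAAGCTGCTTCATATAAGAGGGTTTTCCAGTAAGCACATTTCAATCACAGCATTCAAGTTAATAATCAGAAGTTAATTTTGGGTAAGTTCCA
The capitals in Serpinb3a are 108 bases inside a ethanol peak, those in Serpini2 are 281 bases inside a ethanol peak, and those in Serpinb12 are all 300 bases, inside a tamoxifen peak.

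Promoter windows rarely met a peak, for serpins as for genes in general. The RefSeq promoter table held 61 windows for 53 of the 62 genes. Entries missing from it included Serpinb1a, Serpina9, Serpina10, Serpina3m, Serpinb13, Serpina3k, Serping1 and Serpina6. Of the 61 serpin windows 2 overlapped a peak in the ethanol list and 1 in the tamoxifen list, where the background over 20085 autosomal protein-coding promoter windows was 1.92% and 1.91%. Counts this small do not set serpins apart from the background. On chromosome 1 the median distance from an annotated start to the nearest peak was 16.2 kb in the ethanol list and 3.15 kb in the tamoxifen list, over 13 starts. The ethanol median was itself the earlier Serpinb12 start. The Serpinb12 starts lay 16.2 and 11.7 kb from a peak in the ethanol list and 0.31 and 0 kb in the tamoxifen list. The Serpinb3a start went the other way, with 0.143 and 3.15 kb, and the Serpinb10 start was at 70.3 and 71.1 kb. Within 1 kb of a peak there were 2 of the chromosome 1 starts in the ethanol list and 4 in the tamoxifen list, among them both Serpinb12 starts. The medians were 20.0 and 14.9 kb over 20 Serpina starts, and 10.8 and 13.3 kb over 19 Serpinb starts on chromosome 13. For the 9 single-copy starts they were 56.1 and 58.6 kb. No start outside chromosome 1 lay within 1 kb of a peak, except that of Serpini2 in the ethanol list.

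The Serpinb3 promoters are poor in CpG and 3 of them are alike. Serpinb3b and Serpinb3c were 90.0% identical over the promoter window, Serpinb3a was 79.3% and 74.9% identical to them, and Serpinb3d was between 50.3% and 50.4% identical to the others. Identity was counted over the whole alignment, and gaps at the ends of the windows counted as differences. Annotated starts are offset between these copies, so the values for Serpinb3a, Serpinb3b and Serpinb3c understate how alike their aligned bases are. The level for unrelated sequences was not computed. All 4 windows held at most 1 CpG. Of the 13 chromosome 1 windows 9 (69.2%) held at most 1 CpG, against 11% of all windows. The hexamer TATAAA, searched on both strands, was found in 9 of the 13 (69.2%) and in 12.7% of all windows. On the sense strand it began 65 bases before the start in Serpinb3a, 41 in Serpinb3b and 31 in Serpinb3c, while Serpinb3d held it on the opposite strand alone. These matches describe the letters and are not evidence of binding.

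Coverage was highest at 2 Serpinb3 genes in both lists. The window of Serpinb3b was covered at 40.8% in the ethanol list and 37.1% in the tamoxifen list. The window of Serpinb3d was covered at 35.1% and 43.5%. Among all autosomal protein-coding genes, 1.74% were covered as much as Serpinb3b in the ethanol list and 1.29% as much as Serpinb3d in the tamoxifen list. Within the gene bodies alone the directions were the opposite, with 40.0% and 51.8% for Serpinb3b and 48.2% and 22.7% for Serpinb3d, so neither gene had a direction that held across windows. Serpinb3a and Serpinb3c, in the same array, were covered far less. Serpinb3a stood at 7.32% and 7.53%, and Serpinb3c at 7.75% and 14.5%. The peaks did not lie at the same bases in both lists. Bases in peaks of both lists made up 18.1% of the Serpinb3b window and 21.5% of the Serpinb3d window, and 0% of the Serpinb3a window. The widest peak of the cluster was 3281 bp in the ethanol list (chr1:107166260-107169540), 5.15 kb from Serpinb3b, and 3970 bp in the tamoxifen list (chr1:107020577-107024546), 19.4 kb from Serpinb13.

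Genes before the Serpinb3 array carried intermediate coverage, and Serpinb12 had the largest difference of all serpins in these 5 kb windows. In gene bodies Serpinb3d differed by -25.5 points and Serpinb12 by 24.3. Serpinb12, which encodes an intracellular inhibitor of trypsin-like proteases, was covered at 6.19% in the ethanol list and 27.2% in the tamoxifen list, a difference of 21.0 points. The ethanol list had 2 peaks in its window and the tamoxifen list 5. The peaks seen in the tamoxifen list alone included a peak of 1213 bp (chr1:106938195-106939407) that covers the later annotated start, and a peak of 1352 bp (chr1:106932788-106934139) just before the earlier start. The −log10 q of the 5 tamoxifen peaks lay between 1.25 and 1.68, against a minimum of 1.01 in that list. Serpinb13, an inhibitor of cathepsins, was covered at 14.8% and 9.91%. Serpinb5, which encodes maspin, a serpin without protease inhibition, was covered at 2.83% and 2.98%.

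Peaks continued for some distance past Serpinb3c, and from Serpinb11 onward they were sparse in both lists. The ethanol list had no peak over 115 kb from chr1:107342146-107456743, and the tamoxifen list none over 121 kb from chr1:107335724-107456318. Both runs held the whole of Serpinb11 and Serpinb7. After 1 peak at the end of the Serpinb7 window, seen in both lists, another run free of peaks followed, of 165 kb in the ethanol list and 169 kb in the tamoxifen list. It held Serpinb2, the gene of a plasminogen activator inhibitor, Serpinb10 and Serpinb8, which encodes an inhibitor of furin. The stretch from Serpinb3a to Serpinb3c was covered at 17.4% and 18.7%, and that from Serpinb11 to Serpinb8 at 0.763% and 0.611%. These borders were drawn after the values were seen. Past the cluster, in the next 500 kb, coverage was 22.0% and 21.6%, so the peak-free genes lay between covered chromatin on both sides. In the 500 kb before the cluster coverage was 2.27% and 0.994%.

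**Figure D1:**
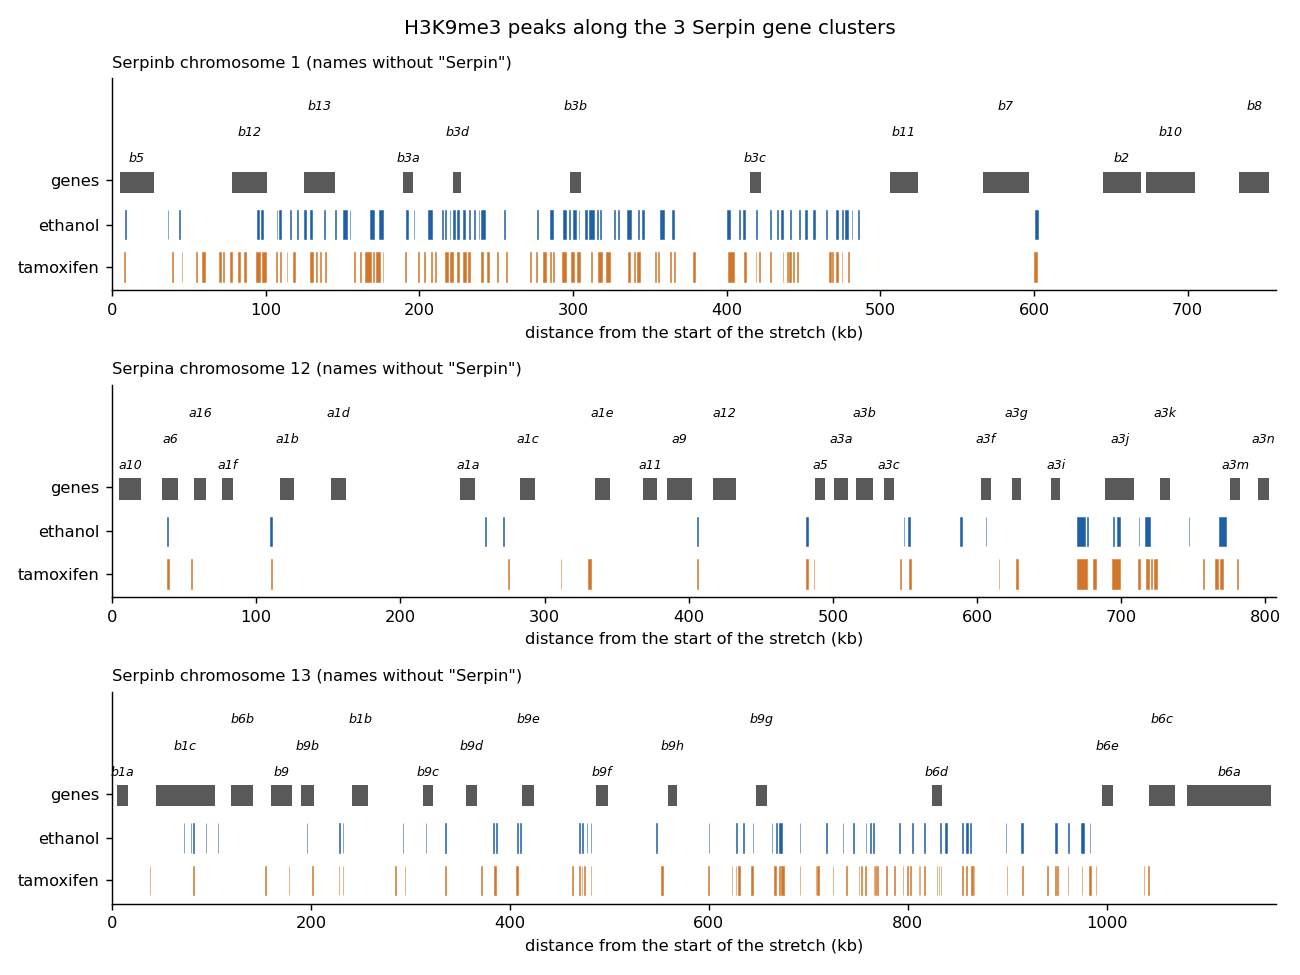
Peaks along the 3 clusters, 1 panel per cluster; the horizontal axis is distance in kb from the start of the stretch, grey boxes are genes, and blue and orange bars are peaks of the control and tamoxifen lists. On chromosome 1 a single peak of each list, just after b7, lies beyond the start of b11, and the windows of b11, b2, b10 and b8 are empty in both. On chromosome 12 the part from a5 to a3n holds 12 of 18 ethanol peaks and 16 of 24 tamoxifen peaks.

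The Serpina cluster on chromosome 12 carried less of the mark, and most of it lay from Serpina5 onward. The stretch from Serpina10 to Serpina12 was covered at 1.09% in the ethanol list and 1.44% in the tamoxifen list. The stretch from Serpina5 to Serpina3n was covered at 6.82% and 9.02%. The widest peak of the cluster lay between Serpina3i and Serpina3j in both lists. In the ethanol list it was 5409 bp wide (chr12:104281215-104286623) with the authors' −log10 q at 3.03, and in the tamoxifen list 7077 bp wide (chr12:104281097-104288173) with 1.65. That site was thus marked in both lists, 11.7 and 11.6 kb from the nearest gene, Serpina3i.

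Serpina3 genes descend from an antichymotrypsin-like ancestor, and 6 of the 10 had a peak in at least 1 list (background 36.4%). Serpina3j was covered at 12% in the ethanol list and 22.5% in the tamoxifen list. Nearly all of its ethanol coverage was shared, at 11.7% of the window. Serpina3k, which encodes the plasma inhibitor contrapsin, was covered at 0% and 10.8%, through 1 tamoxifen peak of 1861 bp that lay 2.07 kb from the gene, so the gene body was at 0% in both lists. With flanks of 20 kb Serpina3k differed by 2.67 points. Serpina3m went the other way, with 11.4% and 3.83%. Its single ethanol peak, of 4688 bp, had a −log10 q of 2.23 and lay outside the gene body. In the gene body Serpina3m was at 0% in the ethanol list and 7.38% in the tamoxifen list. With flanks of 20 kb Serpina3m differed by 1.65 points, so its direction did not hold across windows. Serpina3g, an inhibitor of lysosomal cathepsins, was covered at 0% and 8.12%, Serpina3c at 0% and 4.11%, and Serpina3f at 1.83% and 0%. Serpina3n, an inhibitor of granzyme B, had no peak within 22.5 kb of the gene in the ethanol list and 14.1 kb in the tamoxifen list. Serpina3a, Serpina3b and Serpina3i had none in their windows either.

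The Serpina1 genes, related to an antitrypsin that inhibits neutrophil elastase, were nearly free of peaks. All 6 windows, from Serpina1a to Serpina1f, were at 0% in the ethanol list. In the tamoxifen list Serpina1e was at 8.18%, through 1 peak of 1634 bp that lay 3.22 kb from the gene, and the other 5 were at 0% (83.3% without a peak in either list, background 63.6%). A peak-free run of 148 kb in the ethanol list and 164 kb in the tamoxifen list held Serpina1b, Serpina1d and Serpina1a. Promoters of Serpina1a to Serpina1e were 63.9% to 91.4% identical in 10 pairs, with a median of 86.0%, where gaps counted as differences. How the aligner placed reads among such copies was not given in the sources used here. The other 7 Serpina genes had little coverage. Serpina6, which encodes the corticosteroid-binding globulin, stood at 5.70% and 5.75%, Serpina9 at 2.90% and 4.59%, Serpina16 at 0% and 4.85%, and Serpina5, the gene of the protein C inhibitor, at 0% and 2.43%. Serpina10, Serpina11 and Serpina12, the last of which encodes vaspin, were free of peaks throughout.

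The Serpinb genes on chromosome 13 were thinly covered, with peaks between the genes more than in them. This cluster holds 8 Serpinb9 genes, related to an inhibitor of granzyme B, 5 Serpinb6 genes and 3 Serpinb1 genes, related to an inhibitor of neutrophil elastase. Serpinb6d was covered most in the ethanol list, at 13.2% against 4.32% in the tamoxifen list. Serpinb9e followed with 9.13% and 4.88%. Serpinb9g went the other way, with 3.13% and 8.73%. Gene bodies were at 9.15% and 8.56% for Serpinb6d, and at 0% in both lists for Serpinb9e and Serpinb9g. With a −log10 q from 2 upward the windows of Serpinb6d were at 0% and 1.63%, those of Serpinb9e at 0% and 4.88%, and those of Serpinb9g at 0% in both. With all peaks, window values were 3.73% and 1.64% for Serpinb1c, 3.32% and 0% for Serpinb9c, and 1.40% and 4.32% for Serpinb9b. Serpinb9d stood at 0% and 2.80%, Serpinb9 at 0% and 1.37%, and Serpinb6c at 0% and 1.19%. The other 7 of the 16 genes had no peak (43.8%, background 63.6%). The widest peak was 2817 bp in the ethanol list (chr13:33811783-33814599), 17.7 kb from Serpinb6e, and 2979 bp in the tamoxifen list (chr13:33220617-33223595), 16.6 kb from Serpinb9d. The last of them, Serpinb6a, lay in a peak-free run of 633 kb in the ethanol list and 571 kb in the tamoxifen list that extends past the cluster.

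Pooled over each cluster, the bases inside members were covered less than the bases between genes. On chromosome 13 peaks covered 1.24% of member bases in the ethanol list and 0.977% in the tamoxifen list, against 4.48% and 6.79% of the bases between genes. On chromosome 12 the values were 2.07% and 3.72% in members and 4.69% and 5.61% between genes. On chromosome 1 they were 5.84% and 8.54% in members and 11.2% and 10.8% between genes. The chromosome 1 pool includes Serpinb11, Serpinb7, Serpinb2, Serpinb10 and Serpinb8, whose bodies were at 0% in both lists. The body of Serpinb3b was at 40.0% and 51.8%, so the order did not hold for each gene. Pseudogenes of the chromosome 1 stretch, over 22.4 kb in all, were covered at 19.1% and 33.5%. Those of chromosome 12 were covered at 0.489% and 0.386%, and those of chromosome 13 at 5.92% and 4.52%.

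**Figure D2:**
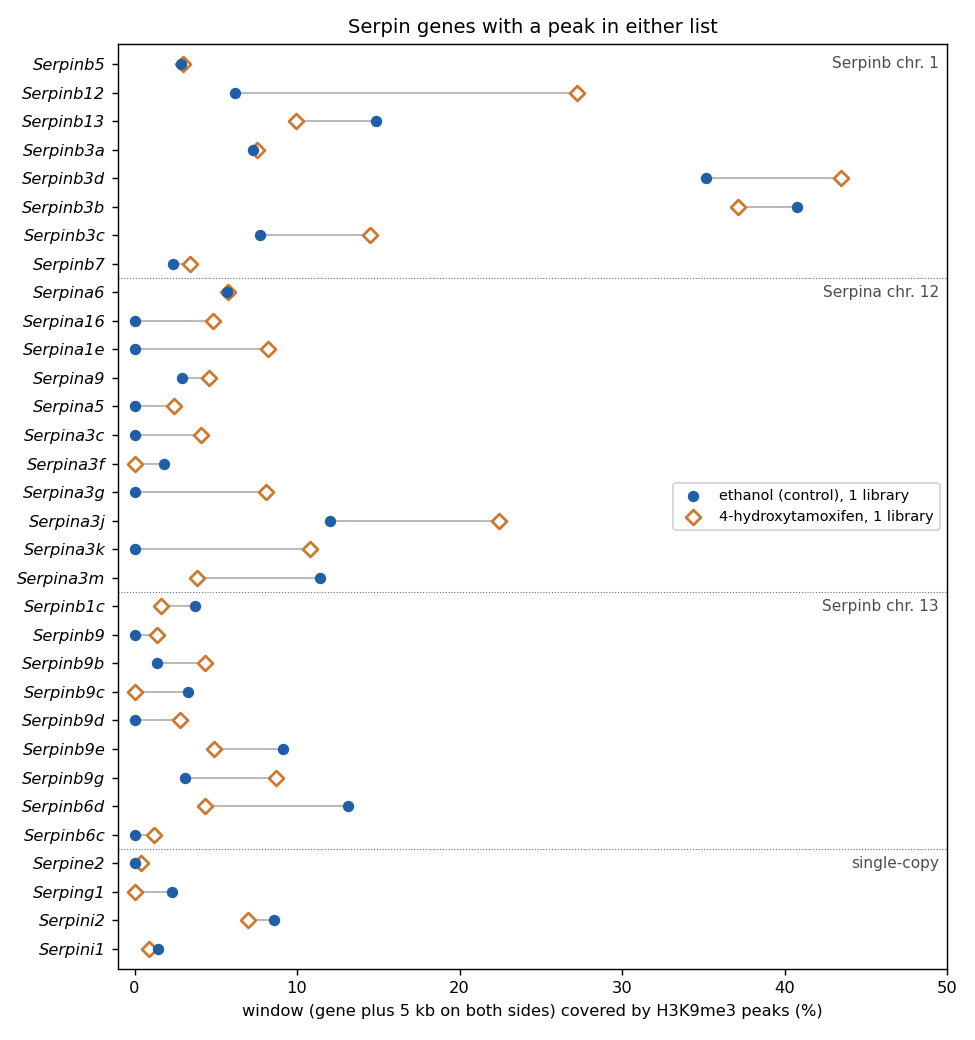
Percent of each gene window covered by H3K9me3 peaks in the ethanol list (filled circles) and the tamoxifen list (open diamonds), for the 32 serpin genes with a peak in either list, with 1 library per condition and no error bars. Serpinb12 has the longest line, from 6.19% to 27.2%, and Serpinb3b and Serpinb3d lie farthest right in both lists.

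Single-copy serpins had peaks about as often as genes in general. Of the 11, 7 had no peak in either list (63.6%, background 63.6%), while 3 had a peak in the ethanol list and 3 in the tamoxifen list (27.3% each, background 30.2% and 30.8%). No peak lay in the window of Serpinc1 (antithrombin), Serpind1 (heparin cofactor), Serpine3, Serpinf1 (a factor acting on vessels and neurons), Serpinf2 (antiplasmin) or Serpinh1 (a collagen chaperone in the endoplasmic reticulum). The nearest peak to Serpinh1 lay 59.5 kb away in the ethanol list and 138 kb away in the tamoxifen list, and that to Serpinf1 26.6 and 291 kb away. Serpine3 lies on chromosome 14, which carried 0.457 Mb of ethanol peaks and 0.386 Mb of tamoxifen peaks, the lowest of the autosomes. Serpine2, the gene of a thrombin-inhibiting nexin, was covered at 0% and 0.414%. Serping1, which encodes the inhibitor of the first complement component, stood at 2.28% and 0%. Serpini1, the neuroserpin gene, stood at 1.46% and 0.898%.

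Serpini2, a pancreatic serpin, was the most covered of this group, at 8.57% in the ethanol list and 6.97% in the tamoxifen list. None of its bases lay in peaks of both lists. The ethanol list had 6 peaks in the window and the tamoxifen list 3. The ethanol peak over the annotated start, whose bases are capitals in the sequence above, was 955 bp wide with a fold of 2.1 and a −log10 q of 1.17, near the lowest value deposited.

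Over all 62 genes, 22 (35.5%) had a peak in their window in the ethanol list and 29 (46.8%) in the tamoxifen list, against 30.2% and 30.8% of all autosomal protein-coding genes. Peaks in the tamoxifen list alone were found for 10 genes (16.1%, background 6.25%) and in the ethanol list alone for 3 (4.84%, background 5.61%). The genes with tamoxifen peaks alone were 6 Serpina genes, 3 Serpinb genes on chromosome 13 and Serpine2, and the ethanol-only genes were Serpina3f, Serpinb9c and Serping1. Neither list had a peak for 30 genes (48.4%, background 63.6%). The median window was 21.1 kb for serpins and 27.5 kb for all genes. A difference of at least 10 points towards the tamoxifen list was seen for 3 genes, Serpinb12, Serpina3k and Serpina3j (4.84%, background 2.44%), and towards the ethanol list for 0 (background 2.67%). With peaks joined across gaps of up to 5 kb the counts were 5 and 6, so this balance depended on how peaks were joined. The share of all genes past 10 points with joined peaks is not given here. Just short of 10 points were Serpinb6d at -8.84 points and Serpinb3d at 8.35 points, which became -25.5 points in the gene body. Members of a cluster are neighbours on 1 chromosome, so these shares do not come from 62 independent genes, and they were not tested.

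Mean window coverage was 3.18% in the ethanol list and 4.17% in the tamoxifen list, a difference of 0.993 points, where all autosomal protein-coding genes had 3.04% and 3.01%. The median was 0% in both lists, for serpins and for all genes, and the median difference was 0 points. By group, the means were 9.77% and 12.2% for Serpinb on chromosome 1, 1.47% and 3.27% for Serpina, 2.12% and 1.83% for Serpinb on chromosome 13, and 1.12% and 0.753% for single-copy genes. The 3 cluster groups together had 3.63% and 4.91%. Coverage of at least 10% in either list was found for 9 serpins (14.5%, background 10.7%), of which 5 were on chromosome 1, 3 on chromosome 12 and 1 on chromosome 13. The direction of the mean depended on peak confidence. The ethanol list held 19912 peaks with a −log10 q from 2 upward and the tamoxifen list 13039. With these peaks the means over serpins were 0.380% and 0.325%. The mean over all genes is not given for these peaks, so the turn is not shown to be particular to serpins. Under that threshold the windows of Serpinb12, Serpina3k, Serpinb3b and Serpinb3d were at 0% in both lists, Serpina3j was at 0% and 3.92%, and Serpina3m at 11.4% and 0%. No serpin window held a peak with a −log10 q of 3 or more.

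**Figure D3:**
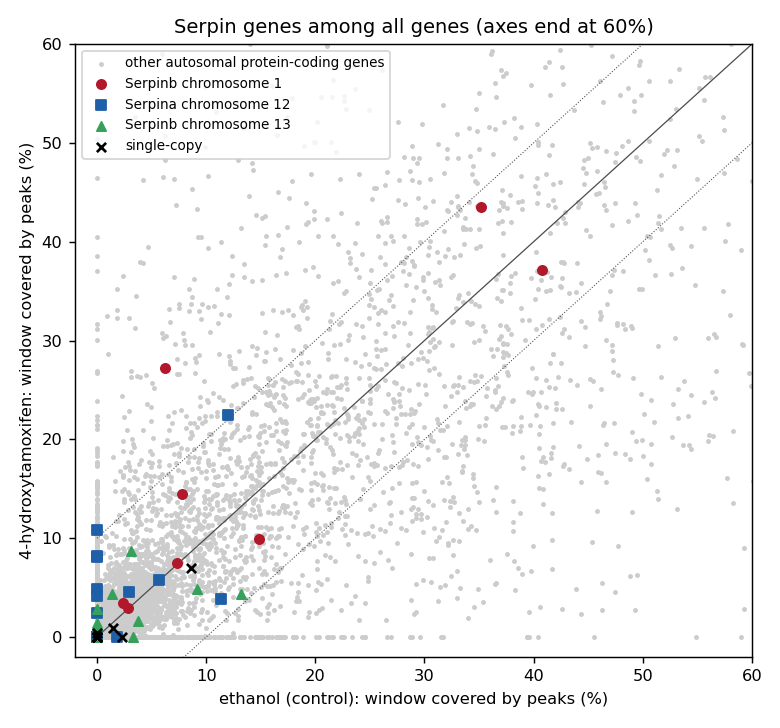
Window coverage in the ethanol list (horizontal axis, %) against the tamoxifen list (vertical axis, %) for serpin genes by group and for all other autosomal protein-coding genes in grey; the solid line marks equal values and the dotted lines a difference of 10 points, and axes end at 60%, which leaves out 108 genes. Serpinb12, Serpina3k and Serpina3j lie above the upper dotted line and no serpin lies below the lower line.

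Measured as whole stretches, each base counted once, all 3 clusters were covered slightly more in the tamoxifen list when every deposited peak was used. With a −log10 q from 2 upward all 3 differences turned, to -0.560 points on chromosome 1, -1.35 on chromosome 12 and -0.0734 on chromosome 13. The Serpinb stretch on chromosome 1 (chr1:106856175-107613978, 758 kb) was covered at 9.92% and 10.9%. The Serpina stretch (chr12:103611675-104419334, 808 kb) was covered at 3.50% and 4.52%, and the Serpinb stretch on chromosome 13 (chr13:32837092-34007794, 1171 kb) at 3.56% and 4.66%. The tamoxifen-to-ethanol ratio of covered bases was 1.09, 1.29 and 1.31 in that order. The same ratio over the whole of chromosomes 1, 12 and 13 was 0.925, 1.14 and 1.12. Chromosomes 12 and 13 as a whole thus leaned the same way as their serpin clusters, and chromosome 1 the other way. In bins of 100 kb, the largest difference towards the tamoxifen list was over Serpinb12 and Serpinb13 (chr1:106900001-107000000), at 9.30% and 18.1%. On chromosome 12 it was over Serpina3j, Serpina3k and Serpina3m (chr12:104300001-104400000), at 12.4% and 16.7%, and on chromosome 13 over Serpinb9h and Serpinb9g (chr13:33400001-33500000), at 1.38% and 5.72%. The largest differences towards the ethanol list were smaller. They were 8.41% and 4.47% over Serpinb11 and the bases before it (chr1:107300001-107400000), 1.41% and 0.485% over Serpina1b and Serpina1d (chr12:103700001-103800000), and 2.35% and 1.89% over Serpinb9, Serpinb9b and Serpinb1b (chr13:33000001-33100000).

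**Figure D4:**
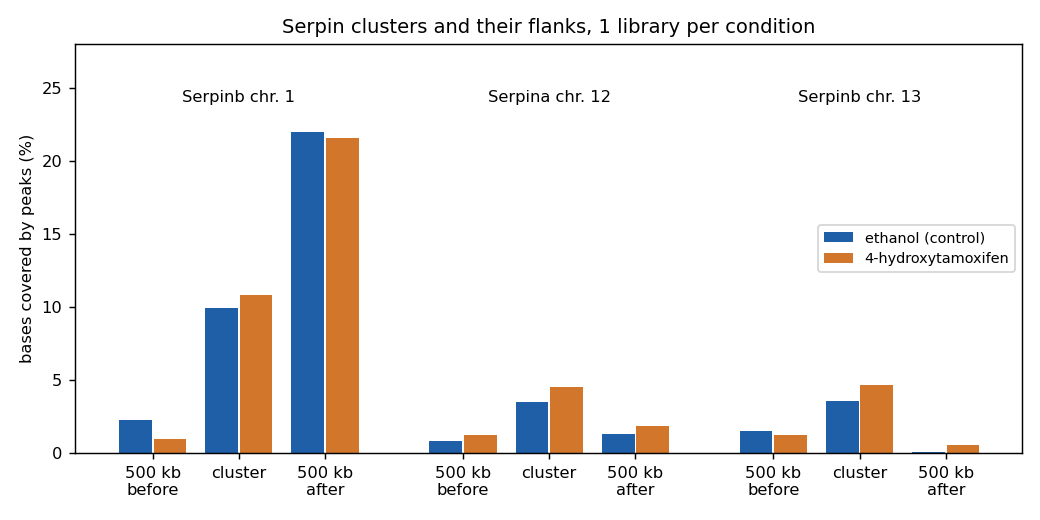
Percent of bases covered by peaks in each cluster stretch and in the 500 kb before and after it, for the ethanol (blue) and tamoxifen (orange) libraries, 1 library per condition. The chromosome 1 cluster, at 9.92% and 10.9%, sits beside a flank at 22.0% and 21.6%, while both flanks of the other clusters are below 2% in both lists.

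Many peaks in the clusters met a peak of the other list, as over the autosomes. Of 132 ethanol peaks 70 overlapped a tamoxifen peak by at least 1 bp (53.0%, 95% Wilson interval 44.6 to 61.3%), against 53.3% over all autosomes. Of 163 tamoxifen peaks 72 overlapped a ethanol peak (44.2%, 36.8 to 51.8%), against 51.5%. These intervals cover counting error only. By shared bases the Serpina cluster was the most alike between the lists, with 61.1% of its ethanol bases and 47.3% of its tamoxifen bases in both. The values were 32.2% and 29.4% on chromosome 1, and 32.2% and 24.6% on chromosome 13. Peaks with a −log10 q of at least 2 made up 18.8% of the whole ethanol list and 11.5% of the whole tamoxifen list, and the clusters held 20 of 132 and 14 of 163. The chromosome 1 stretch had 7 ethanol and 3 tamoxifen peaks of this kind, the Serpina stretch 5 and 2, and the chromosome 13 stretch 8 and 9. The median −log10 q in the chromosome 1 stretch was 1.59 and 1.47, where the medians of the whole lists were 1.60 and 1.48.

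Proteases that serpins inhibit had peaks about as often as other genes in the ethanol list. Their share was lower in the tamoxifen list, but it rests on 46 genes and 1 library and was not tested. The list of target proteases held 48 genes, such as those of thrombin, plasmin, granzymes and kallikreins, of which 46 were autosomal protein-coding genes of the annotation. Their mean coverage was 1.08% in the ethanol list and 0.916% in the tamoxifen list, against 3.04% and 3.01% over all genes. The medians of these proteases were 0%. A peak was present for 15 (32.6%, background 30.2%) in the ethanol list and 11 (23.9%, background 30.8%) in the tamoxifen list. None differed by 10 points, and 29 (63.0%, background 63.6%) had no peak in either list. The most covered were C1s2, a complement protease gene on chromosome 6, at 14.6% and 10.3%, Cela1, an elastase gene, at 6.0% and 6.44%, and Proc, the gene of protein C, at 4.44% and 6.44%. Chromosome 6 as a whole carried 15.3 Mb of ethanol peaks and 7.73 Mb of tamoxifen peaks. Without the 6 genes there, the means were 0.832% and 0.795%. Genes on chromosome 14, the autosome with the fewest covered bases, such as Gzmb and Plau, were kept. The 12 receptors and partners of serpins, such as Plaur and Lrp1, had means of 0.161% and 0.136%.

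Other families of protease genes gave the scale. The 36 measured genes of other protease inhibitors had means of 3.05% and 2.59%, and 0.464% and 0.964% without chromosome 6. There, A2m and Mug1, genes of the macroglobulin inhibitors, stood at 33.1% and 18.5%, and at 38.8% and 22.3%, while Mug2, of the same family, stood at 21.6% and 23.4%. The 8 placental cathepsin genes on chromosome 13, a cluster of tandem protease genes, had means of 27.7% and 41.6%, and their stretch was covered at 30.8% and 42.2%. All 8 had a peak in both lists, against 17 of the 51 clustered serpins (33.3%) and 24.6% of all genes. None of the 6 muscle stem cell and myoblast genes Pax7, Myf5, Myod1, Cdh15, Vcam1 and Itga7 had a peak in its window in either list, as was the case for 63.6% of all genes. Expression was not measured in these libraries.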

How the data were processed

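The submitters' processing notes name BWA 0.7.17-r1188, MACS2, ChIPseeker 1.30.3 and mm10. MACS2 settings, input use and pooling are unstated, and the 2 input libraries were not analysed here. Each deposited broad peak carries the authors' fold enrichment, −log10 p-value, −log10 q-value and a score; fold and q were used within a list, p and score were not used. The replicate number in the peak names differs from the labels, so lists were assigned by condition.

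Covered bases, promoter letters and pairwise promoter identity were computed with Biopython 1.88, scipy 1.17.1, numpy 2.4.6 and pandas 2.3.3 under Python 3.11.15, and plotted with matplotlib 3.10.9. The coverage computation was checked on ethanol peaks moved by a fixed distance, with windows at random positions and some peaks removed. Positions and promoters are RefSeq's (GRCm38.p6, the chromosomes of mm10), and exons were not used here. A planned comparison of protein similarity was not made, and promoter identity was used instead. A gene counted as differing at 10 points of window coverage. Intervals are 95% Wilson intervals. The members, the lists of other genes and the naming rule were chosen with earlier results of these data known. The rule took clustered members with 10% coverage or a 10-point difference, single-copy members with a peak, a preset set (such as Serpina3n and Serpina1a to Serpina1e), the 3 most covered target proteases, and in each cluster the widest peaks and the 100 kb bins that differed most. Other members with a peak, and the borders inside clusters, were chosen after their values were seen. 1 item is counted among the members but not reported here.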

Additional observations from a re-analysis of the deposited data

How the results depend on the processing

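No paired analysis was possible because only 1 library per condition was sequenced, and no replicate could be left out for the same reason. Read depth is unknown, so peaks near the threshold may depend on depth, which was not tested. Mean serpin coverage, 0.993 points higher in the tamoxifen list, was -0.0551 with −log10 q of 2 or more, 0 with 3 or more and 0.547 with peaks joined within 5 kb; equal peak numbers, gene bodies, 20 kb flanks and members sharing no bases moved it less. Genes covered 10 points more with tamoxifen, 3 in the main analysis, were 8 at 5 points, 1 at 20 points, 0 at q of 2 and 0 at q of 3, 5 with joined peaks and 5 in gene bodies. Genes covered less, 0 in the main analysis, were 2 at 5 points, 1 at q of 2, 1 with equal peak numbers (Serpina3m, -10.6 points), 6 with joined peaks and 1 in gene bodies. Genes with a peak numbered 5 (ethanol) and 7 (tamoxifen) at q of 2, 0 and 0 at q of 3, and 42 and 45 with 20 kb flanks; in gene bodies 18 had a tamoxifen peak. Cluster differences for Serpina, Serpinb on chromosome 1 and Serpinb on chromosome 13 were -1.35, -0.560 and -0.0734 points at q of 2, -0.670, 0 and 0 at q of 3, and 1.92, 4.40 and 2.74 with joined peaks; with equal peak numbers the first 2 were 0.452 and 0.574. The shared part of ethanol cluster peaks was 33.3% at an overlap of 50% of the peak, 89.4% within 5 kb and 10% at q of 2, and that of tamoxifen peaks 26.4%, 81.0% and 14.3%. The cause of these shifts was not tested. Shares over all genes at these other settings are not given, so the gene counts stand without a background. Of the 32 serpins whose coverage differed between lists, the sign was opposite for 5 at q of 2 (with 21 at 0), 4 in gene bodies, 7 with 20 kb flanks, 1 with joined peaks and 1 with equal peak numbers.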

Other observations

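Other loci whose symbols start with Serpin, outside the 62 genes, carried little of the mark. None of them lay in the chromosome 1 cluster, where pseudogenes were covered at 19.1% and 33.5%. Serpina7 on chromosome X, which encodes thyroxine-binding globulin, was at 0% in both lists. Among the Serpina3 pseudogenes, Serpina3l-ps was covered at 2.30% in the ethanol list and 2.72% in the tamoxifen list, and Serpina3e-ps at 0.268% and 0%. The other 4 serpin pseudogenes were at 0% in both.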
